A study of Mus musculus with 8 samples.

Results

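The genes described here are 9 neurotrophin and nerve guidance genes, Ngfr, Ntrk2, Bdnf, Gdnf, Gfra1, Sema3a, Sema3f, Slit2 and Robo1. They were chosen by name, as ligands and receptors that act on nerves, from the 54532 genes of the table. Earlier results of these data were known when they were chosen. All 9 are among the 25402 genes that were tested. Total RNA of naive corneas, which had received no treatment, was sequenced for 4 corneas of BALB/cN and 4 corneas of C57BL/6N mice. The paper's methods give male mice for the sequencing, and the labels give the first strain as BALB/c. No transgene, deletion or treatment was part of either group, and the ages of the sequenced mice are not given separately in the sources used here. The comparison asks which corneal transcripts differ between inbred strains with different corneal lymphatic vessels.

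Neurotrophins are secreted proteins that keep neurons alive and guide the growth of their branches. They signal through Trk receptor kinases and through the p75 receptor, which Ngfr encodes. Semaphorins and Slits are guidance cues that mostly repel growing axons, through plexin and neuropilin receptors and through Robo receptors. The cornea is densely supplied by sensory axons whose cell bodies lie in the trigeminal ganglion, outside the sampled tissue.

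Of the 9 genes, 1 passed the adjusted p of 0.01 that was set for a strain difference, against 5.74 percent of all genes tested. Ngfr was 1.94-fold higher in the C57BL/6N corneas, and its values did not overlap between strains. Ntrk2, Gfra1, Sema3a and Slit2 varied widely among the C57BL/6N corneas, and their strains overlapped. Their 3 lowest values fell in the same 3 corneas, which also held few transcripts of keratocytes, the fibroblast-like cells of the corneal stroma, a pattern shown by 9.47 percent of all genes tested. The pattern was not limited to keratocyte genes, and 5 of 7 corneal endothelium and 7 of 9 macrophage markers had it. Sema3f had the highest level of the 9 per length and varied least. Bdnf and Gdnf had the lowest levels.

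Values are given as normalised reads, which are read counts recovered from the authors' regularized log (rlog) values and divided by a library size factor. Differences are in rlog units, a log2 scale, as BALB/cN minus C57BL/6N, with the standard error. A gene was called where the adjusted p from limma was 0.01 or less. By this rule 1458 of the 25402 genes were called. The rlog transformation pulls a gene's values towards their mean, more so at low counts, so an rlog difference understates the change of a weakly expressed gene. Recovered totals ranged from 36.7 to 41.2 M reads for BALB/cN and from 29.7 to 37.0 M for C57BL/6N. Intervals are those of limma and rest on the spread between corneas.

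Some corneas stood apart from others of their strain. The summed normalised reads of 10 keratocyte markers lay between 320800 and 459800 in 5 corneas. They were 102300 in BALB/cN replicate 2, 52000 in C57BL/6N replicate 3 and 55170 in C57BL/6N replicate 4. Kera, which encodes the stromal proteoglycan keratocan, fell to 1558, 247.8 and 585.3 normalised reads in these 3 corneas, against 26920 to 42640 in the other 5. The corneal epithelium list stayed within 1.2-fold over all 8 corneas, so the labelled tissue is seen in each. The 6 pigment cell markers summed to 19130 and 43280 normalised reads in BALB/cN replicates 1 and 4 and to between 208.9 and 3758 in the other corneas. The 8 lens markers were also highest in those 2 corneas. C57BL/6N replicate 2 alone held 5453 normalised reads of Gfap, a glial filament gene, against 1.88 to 8.47 elsewhere.

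The sequence before the transcription start is shown for the gene that was called, Ngfr, and for Ntrk2 and Slit2, which followed the keratocyte transcripts over the corneas. Each line holds the 100 bases that end 50 bases before the RefSeq start in GRCm38.p6, read 5′ to 3′ on the gene's strand. Capitals mark the GC box core GGGCGG, or CCGCCC on the other strand. The Ngfr window is chr11:95587749-95587848 on the minus strand, the Ntrk2 window is chr13:58806419-58806518 on the plus strand, and the Slit2 window is chr5:47983005-47983104 on the plus strand.
Ngfr: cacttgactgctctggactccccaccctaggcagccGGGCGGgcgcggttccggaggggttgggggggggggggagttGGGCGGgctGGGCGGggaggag
Ntrk2: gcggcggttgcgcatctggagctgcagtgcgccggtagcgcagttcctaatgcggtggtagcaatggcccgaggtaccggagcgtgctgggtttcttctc
Slit2: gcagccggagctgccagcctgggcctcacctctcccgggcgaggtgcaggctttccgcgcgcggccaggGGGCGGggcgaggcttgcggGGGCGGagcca
The window held 3 copies of GGGCGG in Ngfr, 2 in Slit2 and 0 in Ntrk2. Gfra1 and Sema3a, which had the same pattern over the corneas as Ntrk2 and Slit2, had 0 copies in windows not shown. Of all 32851 windows of this length and place in the RefSeq table, 18.8 percent held at least 1 copy. The TATA motif TATAAA was in 0 of the 3 windows and in 4.12 percent of all. The windows leave out the 50 bases next to the start, so a TATA motif there would not be seen. A match is a stretch of letters and was not tested as a binding site.

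Ngfr encodes the p75 neurotrophin receptor, which binds every neurotrophin with low affinity. It is ENSMUSG00000000120, on chromosome 11 from 95568818 to 95587735 in GRCm38. The 4 BALB/cN corneas held 1542, 2126, 2545 and 2309 normalised reads of Ngfr, and the 4 C57BL/6N corneas held 4023, 3917, 4068 and 4485. Every C57BL/6N cornea was above every BALB/cN cornea, and the C57BL/6N values lay close together. The strain means were 2130 ± 428 and 4123 ± 249 normalised reads (SD, n = 4 each). The rlog difference was -0.73 ± 0.10, with an adjusted p of 0.00156 by limma. An exact two-sided permutation test gave p = 0.0286, the smallest value that 4 against 4 corneas allow. Leaving out each cornea in turn kept the call, with rlog differences from -0.80 to -0.62. The call was lost when the p-values were recalibrated to an empirical null, where the adjusted p was 0.471 and the unadjusted p was 0.0118, and in the 5 corneas with more keratocyte transcripts, where the difference was -0.69 with an adjusted p of 0.041.

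In bulk tissue, a change in the number of cells that express a gene and a change in its RNA per cell cannot be told apart. Ngfr did not follow the keratocyte transcripts. Its mean was 3970 normalised reads in C57BL/6N replicates 1 and 2 and 4276 in replicates 3 and 4, and it was 2126 in BALB/cN replicate 2 against a mean of 2132 in the other 3 BALB/cN corneas. Some conjunctiva markers were lower in BALB/cN, as Ngfr was, and others were not. Of 8 conjunctiva markers, Krt13, Krt4, Krt19 and Muc4 were called, all lower in BALB/cN, and 0 were called higher. Of all genes tested, 5.74 percent were called. Krt13 had 1562 ± 221 normalised reads in BALB/cN and 15970 ± 2697 in C57BL/6N corneas (SD, n = 4 each). The whole list summed to between 523900 and 773100 normalised reads in BALB/cN and to between 886600 and 1119000 in C57BL/6N corneas. That sum was mostly Muc4. The Muc4 mean was 920900 normalised reads in C57BL/6N replicates 1 and 2 and 1020000 in replicates 3 and 4. It was 607300 in BALB/cN replicate 2 against a mean of 637500 in the other 3 BALB/cN corneas. Krt8 and the goblet cell mucin Muc5ac had higher values in BALB/cN and were not called. Krt8 had 33.0 ± 9.17 normalised reads in BALB/cN and 6.51 ± 3.69 in C57BL/6N corneas (adjusted p = 0.0111 by limma). Muc5ac had 259.4 ± 245 normalised reads in BALB/cN and 1.52 ± 1.95 in C57BL/6N corneas (adjusted p = 0.0225 by limma). The part of conjunctival cells in the Ngfr difference was not tested. Of 14 Schwann cell markers, limma and voom called 0 in either direction, and 4 had an unadjusted p under 0.05. By limma, 6009 of all 25402 genes tested had such a p.

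**Figure D1:**
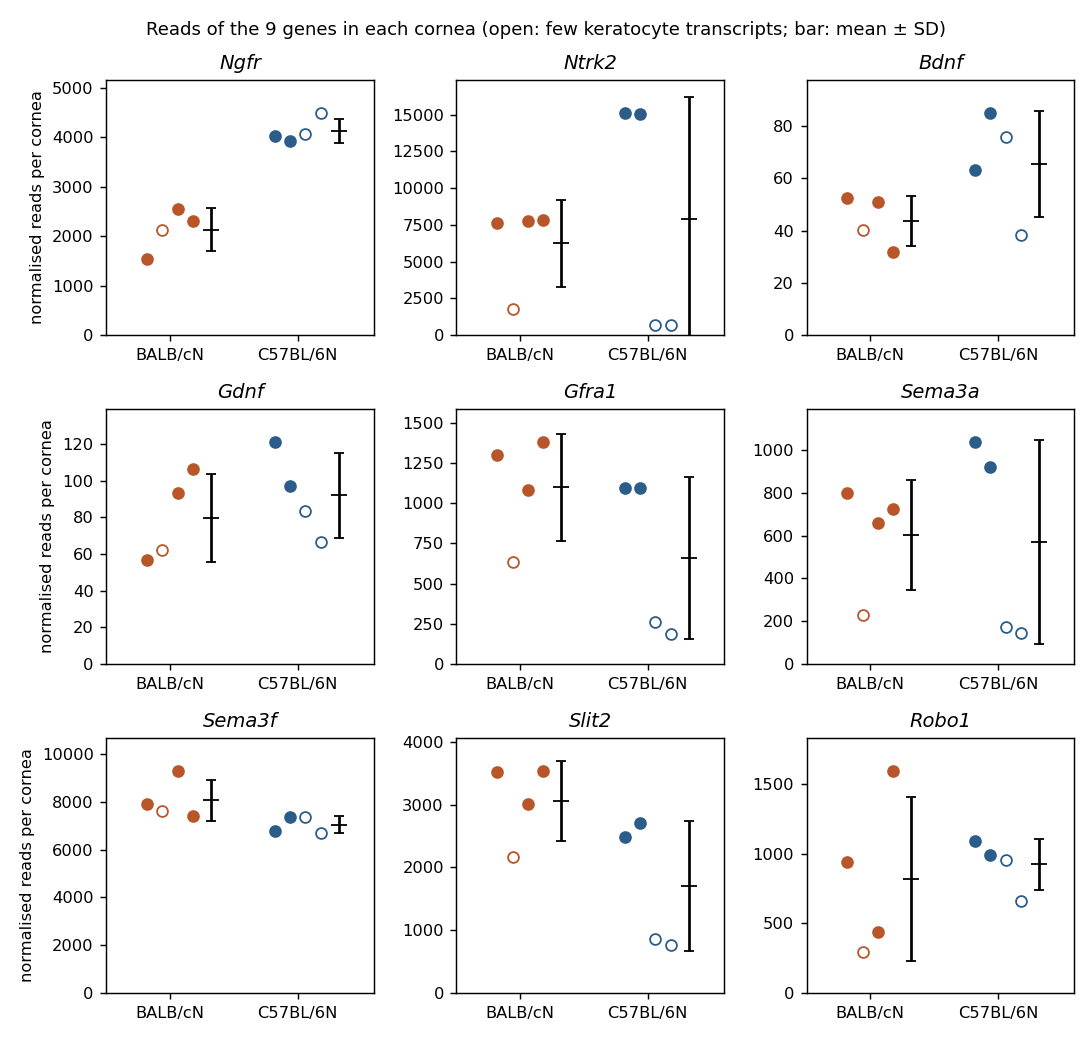
Normalised reads of the 9 genes in each cornea, 1 panel a gene, with a linear axis from 0. Each point is 1 cornea, open points are the 3 corneas with few keratocyte transcripts, and the bar is the mean ± SD of 4 corneas (the lower end of the C57BL/6N bar of Ntrk2 runs below 0 and is not drawn). Ngfr separates the strains, at 1542 to 2545 against 3917 to 4485, and the open points are the lowest of Ntrk2, Gfra1, Sema3a and Slit2.

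Ntrk2 encodes TrkB, the receptor kinase for BDNF and neurotrophin-4. It is ENSMUSG00000055254, on chromosome 13 from 58806569 to 59133970. The BALB/cN corneas held 7598, 1757, 7734 and 7851 normalised reads of Ntrk2, and the C57BL/6N corneas held 15110, 15050, 714.2 and 709.2. Each strain fell into a high and a low part, and the strains overlapped. The highest cornea was 21.3-fold above the lowest. C57BL/6N replicates 1 and 2 were 21.2-fold above replicates 3 and 4, and BALB/cN replicates 1, 3 and 4 were 4.4-fold above replicate 2.

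Over all 8 corneas Ntrk2 had an rlog difference of 0.45 ± 0.81, with a 95% interval from -1.36 to 2.27 and an adjusted p of 0.782 by limma. The mean of its normalised reads ran the other way, 6235 in BALB/cN and 7898 in C57BL/6N corneas. In the 5 corneas with more keratocyte transcripts, a choice made after seeing the data, Ntrk2 was 1.95-fold higher in C57BL/6N. There its rlog difference was -0.76 ± 0.04, with an adjusted p of 0.000299 by limma. It was the only one of the 9 called there, where 3.35 percent of all genes were called. That fit rests on 2 C57BL/6N corneas, replicates 1 and 2, the most alike of their strain. Keratocyte transcripts still differed by strain in these 5 corneas. The keratocyte list summed to 459800 and 449200 normalised reads in C57BL/6N, against 320800 to 343800 in BALB/cN. Of its 10 markers, 3 were called lower in BALB/cN there and 0 higher. With the mean rlog of the keratocyte list as a covariate over all 8 corneas, the Ntrk2 difference was -0.20 ± 0.16 (adjusted p = 0.482 by limma), and it was -0.29 with an adjusted p of 0.0261 when Ptgds was left out of that list. The direction for Ntrk2 therefore depends on which corneas enter and on the covariate.

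Bdnf, the ligand of TrkB, was weakly expressed. Its recovered reads were 61, 46, 54 and 33 in the BALB/cN corneas and 62, 85, 60 and 36 in the C57BL/6N corneas. The strains overlapped because C57BL/6N replicate 4 was low. The mean was 43.8 ± 9.56 normalised reads in BALB/cN and 65.5 ± 20.3 in C57BL/6N corneas, the rlog difference was -0.21 ± 0.11 with a 95% interval from -0.46 to 0.05, and the adjusted p was 0.306 by limma. An antisense gene, Gm45346, shares 896 exon bases with Bdnf and had 0 recovered reads in every cornea.

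The rest of the neurotrophin family gave no further call. The fixed list holds 12 genes, of which 11 were tested. Ngfr alone was called, where 5.74 percent of all genes tested were called. Ntf3, which encodes neurotrophin-3, had 775.5 ± 54.6 normalised reads in BALB/cN and 821.6 ± 101 in C57BL/6N corneas. Ntrk3, the receptor kinase for neurotrophin-3, also had its 3 lowest values in the 3 corneas with few keratocyte transcripts.

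Gdnf, the ligand that binds GFRα1 and signals through the kinase RET, had 66, 71, 99 and 110 recovered reads in the BALB/cN corneas and 119, 97, 66 and 63 in the C57BL/6N corneas. The ranges of the strains overlapped in part, with BALB/cN replicates 1 and 2 lowest and C57BL/6N replicate 1 highest as normalised reads. The means were 79.6 ± 24.2 and 92.1 ± 23.1 normalised reads, and the rlog difference was -0.10 ± 0.13 with a 95% interval from -0.38 to 0.18 (adjusted p = 0.67 by limma).

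Gfra1 encodes the GFRα1 co-receptor. Gfra1 had 1299, 635.3, 1083 and 1382 normalised reads in the BALB/cN corneas, and in the C57BL/6N corneas it had 1097, 1096, 264.2 and 189.5. The strains overlapped, and the 3 corneas with few keratocyte transcripts were lowest. The rlog difference was 0.74 ± 0.39, with a 95% interval from -0.14 to 1.62 and an adjusted p of 0.297 by limma. With the keratocyte covariate it was 0.43 ± 0.09 and was called (adjusted p = 0.00796), but with Ptgds left out of the covariate the adjusted p was 0.02. In the 5 corneas with more keratocyte transcripts it was 0.14 ± 0.09 (adjusted p = 0.399). Of the 10 GDNF family genes, 9 were tested and limma and voom called 0 in the comparison of 8 corneas. By limma 4 had an unadjusted p under 0.05, as did 6009 of all 25402 genes tested. Ret had 173 ± 30 normalised reads in BALB/cN and 242.9 ± 48.9 in C57BL/6N corneas (adjusted p = 0.148 by limma). The antisense gene Gm16277, which shares 416 exon bases with Gfra1, had at most 3 recovered reads.

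Sema3a encodes a secreted semaphorin that repels axons through neuropilin-1. The BALB/cN corneas held 800.6, 229, 660.7 and 722.8 normalised reads of Sema3a, and the C57BL/6N corneas held 1037, 920.2, 170.7 and 144. The pattern was that of Ntrk2, with C57BL/6N replicates 1 and 2 highest and the 3 corneas with few keratocyte transcripts lowest. The rlog difference was 0.29 ± 0.47, with a 95% interval from -0.77 to 1.34 (adjusted p = 0.76 by limma). It was -0.31 ± 0.08 in the 5 corneas with more keratocyte transcripts (adjusted p = 0.073) and -0.09 ± 0.08 with the keratocyte covariate (adjusted p = 0.511), so its direction was not fixed by these data.

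Sema3f encodes a secreted semaphorin that acts through neuropilin-2. In BALB/cN corneas Sema3f had 7920, 7621, 9301 and 7416 normalised reads, and in C57BL/6N corneas it had 6768, 7359, 7352 and 6714. Every BALB/cN cornea was above every C57BL/6N cornea, but by a small margin. The means were 8064 ± 850 and 7048 ± 355 normalised reads, a ratio of 1.14. The rlog difference was 0.14 ± 0.06, and Sema3f was not called (adjusted p = 0.195 by limma). Its size depended on the scaling. It was 0.07 ± 0.10 with median centring (adjusted p = 0.724 by limma) and 0.19 ± 0.06 with quantile normalization (adjusted p = 0.0721 by limma). Ngfr and Sema3f were the 2 of the 9 genes whose strains did not overlap, and 18.3 percent of all genes tested did not overlap. Sema3f did not follow the keratocyte transcripts, with a mean of 7064 normalised reads in C57BL/6N replicates 1 and 2 and 7033 in replicates 3 and 4.

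Among the 14 class 3 semaphorins and their receptors, 2 were called, where 5.74 percent of all genes tested were called. Sema3d, another secreted semaphorin, was higher in BALB/cN, at 1944 ± 42.2 against 1142 ± 255 normalised reads (rlog difference 0.58 ± 0.10, adjusted p = 0.00553 by limma). Plxna3, which encodes a plexin receptor, was lower in BALB/cN, at 913.7 ± 128 against 1492 ± 226 normalised reads (rlog difference -0.51 ± 0.10, adjusted p = 0.00805 by limma). The neuropilin genes Nrp1 and Nrp2 were not called, and both had their 3 lowest values in the 3 corneas with few keratocyte transcripts. In this list 8 of 14 genes had that pattern, against 9.47 percent of all genes tested.

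Slit2 encodes a secreted ligand of Robo receptors. The BALB/cN corneas held 3517, 2173, 3002 and 3538 normalised reads of Slit2, and the C57BL/6N corneas held 2480, 2707, 858.3 and 756.8. BALB/cN replicates 1, 3 and 4 were above all C57BL/6N corneas, and BALB/cN replicate 2 lay inside the C57BL/6N range. The rlog difference was 0.77 ± 0.30, with a 95% interval from 0.09 to 1.44, and Slit2 was not called (adjusted p = 0.153 by limma). With the keratocyte covariate it was 0.53 ± 0.08 and was called (adjusted p = 0.000792), and with Ptgds left out of the covariate it was 0.50 with an adjusted p of 0.00128. In the 5 corneas with more keratocyte transcripts Slit2 was 1.29-fold higher in BALB/cN, without a call (rlog difference 0.28 ± 0.07, adjusted p = 0.0696). Thus with the covariate Ngfr, Gfra1 and Slit2 were the 3 of 9 genes called, where 9.55 percent of all genes were called.

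Robo1 encodes a Slit receptor. Robo1 varied widely in the BALB/cN corneas, at 938.6, 295.4, 434.8 and 1594 normalised reads, and the C57BL/6N corneas held 1090, 993.2, 950.6 and 661.5. The BALB/cN values spread both above and below the C57BL/6N values, with replicates 1 and 4 high and replicates 2 and 3 low. Replicates 1 and 4 were also the BALB/cN corneas with the most pigment and lens transcripts, and they held 451.7 and 926.2 normalised reads of Sox10, a gene of Schwann and pigment cells, against 37.6 and 106.3 in replicates 2 and 3. The part of these transcripts in the Robo1 values was not tested. The rlog difference over all 8 corneas was -0.31 ± 0.32, with a 95% interval from -1.03 to 0.42 (adjusted p = 0.613 by limma). Without BALB/cN replicates 1 and 4, a choice made after seeing the data, it was -0.93 ± 0.17 with an adjusted p of 0.0299, which misses the threshold. Of the 10 Slit, Robo and srGAP genes, 9 were tested, and limma and voom called 0 over all 8 corneas. By limma 2 had an unadjusted p under 0.05, as did 6009 of all 25402 genes tested.

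**Figure D2:**
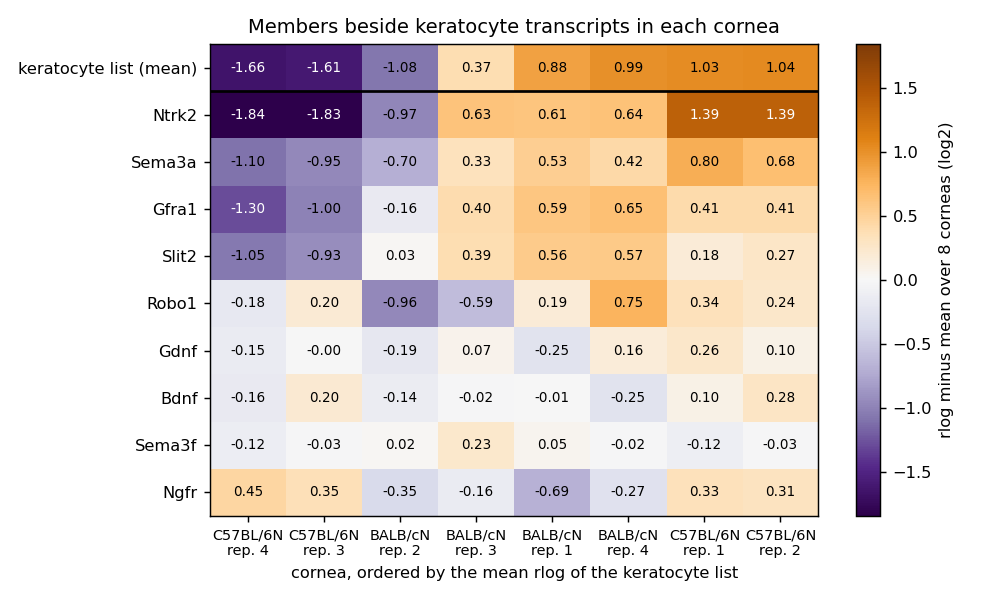
Mean rlog of the 10 keratocyte markers (top row) and rlog of each of the 9 genes, each less its mean over the 8 corneas (colour and printed number, log2 units), with corneas ordered by the keratocyte list. Ntrk2, Sema3a, Gfra1 and Slit2 are lowest in the 3 corneas at the left, and Ngfr and Sema3f are not.

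Ntrk2, Gfra1, Sema3a and Slit2 were thus 4 of 9 genes whose 3 lowest values were those of the 3 corneas with few keratocyte transcripts. The same held for 2405 of all 25402 genes, or 9.47 percent. By list, it held for 9 of 10 keratocyte, 5 of 7 corneal endothelium, 7 of 9 macrophage and 0 of 9 corneal epithelium markers. The ratio of C57BL/6N replicates 1 and 2 to replicates 3 and 4 was 21.2 for Ntrk2, 6.22 for Sema3a, 4.84 for Gfra1 and 3.21 for Slit2. For Col1a1, a collagen gene of the keratocyte list, it was 6.53, and for Kera it was 100.3. The part of keratocyte content in the values of these 4 genes was not tested beyond the covariate and the 5 corneas. The part of corneal endothelium or macrophages in them was not tested. Keratocyte transcripts were not equal between strains in those 5 corneas.

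**Figure D3:**
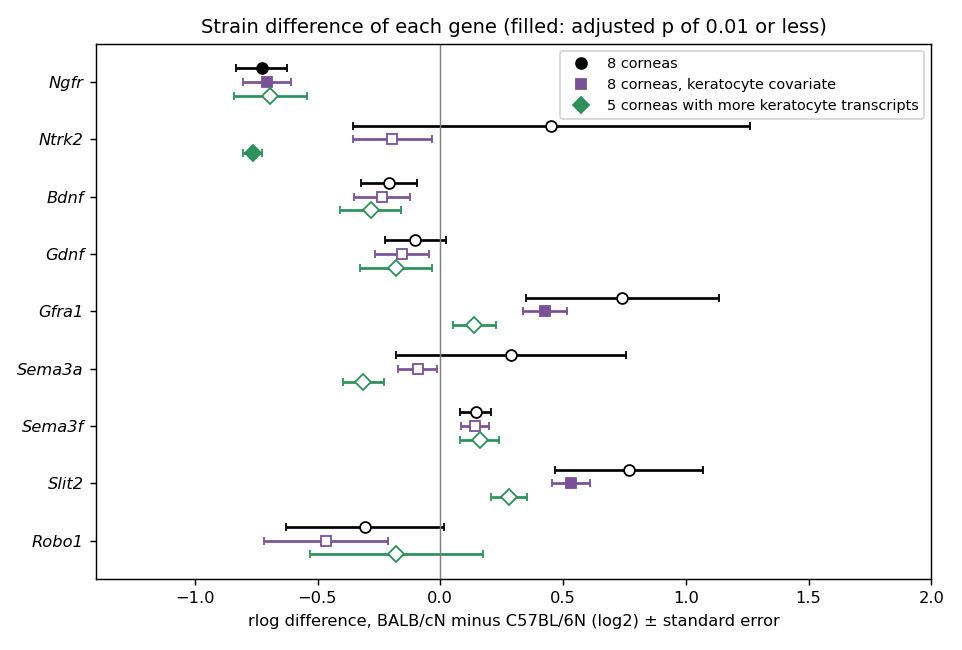
Rlog difference of each gene, BALB/cN minus C57BL/6N, with its standard error, for all 8 corneas (circles), with the keratocyte covariate (squares) and for the 5 corneas with more keratocyte transcripts (diamonds). Filled symbols have an adjusted p of 0.01 or less. Ngfr lies near -0.7 in all 3, while Ntrk2 moves from 0.45 to -0.76.

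Per kilobase of exon, Sema3f had the highest level, with a mean of 1454 normalised reads over the 8 corneas, followed by Ngfr with 907.4 and Ntrk2 with 366.3. Gfra1 had 160.9, Slit2 93.5, Robo1 52.7 and Sema3a 42.2 normalised reads per kilobase. Gdnf, with 23.4, and Bdnf, with 8.79, were at the bottom. The order depends on the length used, the union of all annotated exons, 19292 bases for Ntrk2 and 5197 for Sema3f. Undivided means in BALB/cN and C57BL/6N were 6235 and 7898 normalised reads for Ntrk2 and 8064 and 7048 for Sema3f. For Ngfr they were 2130 and 4123. The ranges of neighbours in this order overlapped over the corneas, except that Gdnf, at 15.4 to 33.0, lay above Bdnf, at 5.14 to 13.7 normalised reads per kilobase.

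Other genes whose profile over the 8 corneas was most like that of a member were sought among 18761 genes, by the root mean square difference of centred rlog values. Nearest to Ngfr were Slc5a8, Tmprss2 and Ptpn18, with differences of 0.08 each. Nearest to Ntrk2 were Dpep1 at 0.12, Mfap4 at 0.13 and Sparc at 0.16. Gfra1 was nearest to Tmem204, Itga1 and Egflam, Sema3a to Srpx2, Timp2 and Cldn10, and Slit2 to Tspan13, Ndrg2 and Gli2. The nearest genes to Robo1 were Hs3st1 at 0.16, Nexn at 0.17 and St3gal1 at 0.20. Bdnf, Gdnf and Sema3f varied too little over the corneas, by less than 1 rlog unit, for this comparison.

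The 8 pathway lists around the 9 genes hold 107 genes, of which 101 were tested, and 6 were called, a share near the 5.74 percent of all genes tested. Ngfr, Sema4d, Plxna3 and Unc5c were lower in BALB/cN and Sema3d and Rgma were higher. Leaving out each cornea in turn gave between 2 and 7 calls. The median rlog difference of the 101 genes was 0.01, equal at this precision to that of all genes tested. Sema4d, a membrane semaphorin, had 6160 ± 697 normalised reads in BALB/cN and 9951 ± 792 in C57BL/6N corneas (rlog difference -0.53 ± 0.07, adjusted p = 0.0012 by limma). Unc5c, which encodes a netrin receptor, had 300.3 ± 74.7 and 690.7 ± 158 normalised reads (rlog difference -0.82 ± 0.15, adjusted p = 0.00588 by limma). Rgma, a repulsive guidance molecule that binds neogenin, had 2106 ± 227 and 1532 ± 74.3 normalised reads (rlog difference 0.34 ± 0.07), just inside the threshold. None of the 21 ephrins and Eph receptors and none of the 7 tested CNTF and LIF genes was called by limma or voom over the 8 corneas. By limma 7 and 2 of them had an unadjusted p under 0.05, as did 6009 of all 25402 genes tested. With the keratocyte covariate 9 of the 101 genes were called higher and 8 lower in BALB/cN, where 9.55 percent of all genes were called. In the 5 corneas 0 were called higher and 6 lower, where 3.35 percent of all genes were called, 411 higher and 441 lower.

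**Figure D4:**
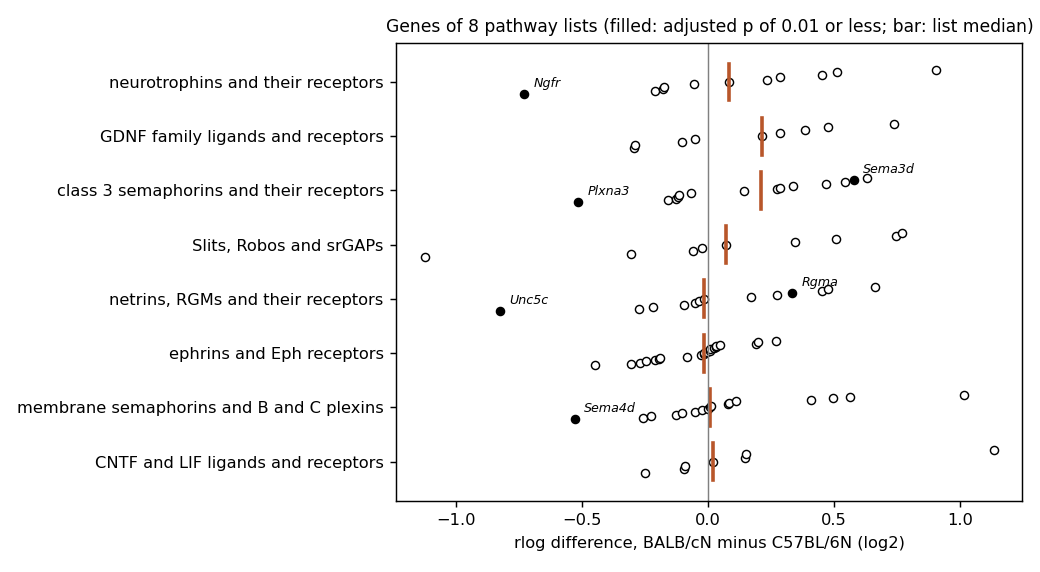
Rlog difference, BALB/cN minus C57BL/6N over 8 corneas, of each tested gene in the 8 pathway lists. Each circle is a gene, filled and named where the adjusted p was 0.01 or less, and the bar is the list median. The 6 called genes fall in 4 of the 8 lists, with 4 lower and 2 higher in BALB/cN.

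Most transcripts that define sensory neurons were at or near 0. Of 14 sensory axon markers, Calca, Scn9a and Scn10a had 0 reads in every cornea, and Trpv1, Trpm8, Prph, Nefl and Tubb3 had strain means under 9 normalised reads. Gap43, a growth cone gene, had 40.1 ± 13.6 normalised reads in BALB/cN and 58.0 ± 42.8 in C57BL/6N corneas. Piezo2, a mechanically gated channel gene, had the highest level in this list and was the 1 marker of it that was called. Of all genes tested, 5.74 percent were called. The BALB/cN corneas held 246.9, 241.2, 311.5 and 376.9 normalised reads of Piezo2 and the C57BL/6N corneas held 8382, 9368, 11510 and 11380. Its strains were far apart, with an rlog difference of -3.76 ± 0.11 (adjusted p = 7.31e-08 by limma). Limma and voom called none of the other 10 tested markers of the list. By limma 1 of them had an unadjusted p under 0.05, as did 6009 of all 25402 genes tested.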

How the data were processed

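Total RNA of 8 corneas was made into strand-specific libraries and read from both ends, 100 bases each. Per the paper's methods, the authors trimmed reads, removed ribosomal and transfer RNA, aligned to strain pseudo-genomes of GRCm38 with TopHat2 2.1.1 and counted reads per Ensembl release 94 gene with HTSeq 0.7.1. The strand setting of the counting is not given in the sources used here. The authors deposited DESeq2 1.30 rlog values, which are log2 values normalized for library size, written with decimal commas. These deposited values were the only other measure used, and 0 columns were left out.

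Inverting the rlog formula gave back the read counts, with constants fitted to the deposited values alone. In 7737 genes not used for the fit, 93.0 percent of recovered values lay within 0.1 of a whole number, against 20.0 percent after a random offset. At a mean rlog of 12 to 14, 28 percent did, so high counts are approximate. Levels per kilobase used the exon union of GENCODE models of GRCm38, and symbols were matched for 54409 of the 54532 identifiers.

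Strains were compared on the rlog values with limma 3.58.1 (R 4.3.3), with a variance trend, over the 25402 genes whose mean rlog was at least 0, all of which entered the Benjamini-Hochberg adjustment. Each of the 9 genes also had an exact permutation test, two-sided (scipy 1.17.1). The procedures were tested on simulated data. Whether replicate corneas came from separate mice is not stated for each, so p-values set the strain difference against the spread between these samples. If corneas shared a mouse, that spread could understate the spread between mice, and p-values would be too small. No pair of corneas of the same strain agreed within sampling noise, with a chi-square per gene of at least 10.8. It was 10.8 for C57BL/6N replicates 1 and 2 and 15.6 for replicates 3 and 4. All other C57BL/6N pairs had 92.6 to 94.5, and the BALB/cN pairs had 19.4 to 78. The C57BL/6N corneas thus fell into pairs, and whether paired corneas shared a mouse or a handling step was not tested.

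The 9 genes and the lists were chosen with earlier results of these data known. Named genes are the 9, up to 4 called genes of each pathway list, the 3 genes nearest in profile to each gene that ranged over at least 1 rlog unit, and markers that were called or define a cell type. Other names were chosen after their values were seen. The alternatives were no variance trend, a robust fit, 2 other filters, 2 other scalings, an empirical null, a replicate block, a keratocyte covariate, each cornea left out, a threshold of 0.05 and voom on recovered counts. The sets of 5 and 6 corneas and the covariate without Ptgds were chosen after seeing the data. Some genes of the lists are not reported here.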

Additional observations from a re-analysis of the deposited data

Results flagged for a closer look

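In BALB/cN replicate 2, Ntrk2 lay far below the other BALB/cN corneas, at an rlog of 11.13 against 12.71 to 12.74, and the gap to the nearest cornea was 0.977 of the whole range. Sema3a was low in the same cornea, at 8.197 against 9.23 to 9.43, with a gap of 0.838 of the range. Both gaps passed Dixon's 95% limit for 4 samples. Chance passes that limit in about 1 of 20 groups, and 18 groups were examined, so 0.9 such cases are expected. This cornea also held the fewest keratocyte transcripts of its strain.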

How the results depend on the processing

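Ngfr kept its direction in every alternative and its call in all but the empirical null and the 5 corneas with more keratocyte transcripts. The empirical null left 0 genes called by limma, of all genes, of the 9, of the pathway genes and of the listed genes alike, although 1732 had an unadjusted p under 0.05, and voom on recovered counts called 1424. Of all genes, 958 were called with median centring, 554 with the replicate block, 2425 with the keratocyte covariate, 2376 with that covariate without Ptgds, 2842 at a threshold of 0.05, 852 in the 5 corneas and 447 in the 6 corneas with less pigment and lens transcripts, against 1458. Of the 9, 3 were called with the covariate and 2 without Ptgds in it. Against 6 pathway genes and 12 listed genes (pathway and marker lists together), the calls were 2 and 6 with the replicate block, 17 and 27 with the covariate, 17 and 28 without Ptgds, 14 and 25 at a threshold of 0.05, and 1 and 4 in the 6 corneas, and 3 pathway genes were called with no variance trend. Leaving out each cornea in turn called 953 to 1163 genes in all, 2 to 7 pathway genes and 7 to 12 listed genes, with the lowest total and listed count without C57BL/6N replicate 4. The pathway count was 2 when the cornea left out was C57BL/6N replicate 1, C57BL/6N replicate 4 or BALB/cN replicate 3, and it was 3 when that cornea was C57BL/6N replicate 3 or either of BALB/cN replicates 2 and 4. The cause of these shifts was not tested.

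Ntrk2 and Sema3a, neither called over 8 corneas, changed direction. Their rlog differences were -0.196 and -0.0916 with the keratocyte covariate, -0.294 and -0.143 without Ptgds, -0.764 and -0.313 in the 5 corneas, and for Sema3a -0.0442 in the 6 corneas. Leaving out each cornea gave -0.0876 to 0.99 for Ntrk2, below 0 without C57BL/6N replicate 3 or 4, and -0.0314 to 0.603 for Sema3a, below 0 without C57BL/6N replicate 4.

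Same-numbered corneas did not deviate together, with correlations of 0.31, -0.53, -0.20 and -0.45, and 1 of 8 corneas correlated best with its own number. With the replicate block Ngfr had an adjusted p of 0.00957 by limma, and the block changed no call among the 9. With 4 corneas a strain and large spread within strains, the missing calls do not show that the other 8 genes were equal. Bdnf and Gdnf rest on 33 to 119 recovered reads a cornea, the fewest of the 9.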

Other observations

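Srgap1 and Ntn1, named after their values were seen, are among the guidance genes that were not called over the 8 corneas. Srgap1, which acts downstream of Robo receptors, had 60.1 ± 34.6 normalised reads in BALB/cN and 253.3 ± 130 in C57BL/6N corneas (rlog difference -1.12 ± 0.26, adjusted p = 0.0238 by limma). Ntn1, which encodes the guidance cue netrin-1, had 3132 ± 161 and 1745 ± 533 normalised reads (rlog difference 0.66 ± 0.14, adjusted p = 0.0138 by limma). With the keratocyte covariate both were called, at adjusted p-values of 2e-05 for Srgap1 and 0.00128 for Ntn1. In the 5 corneas with more keratocyte transcripts Srgap1 was called (adjusted p = 0.00596 by limma), and Ntn1 was not, with an rlog difference of 0.37 and an adjusted p of 0.0125.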
